A study of Drosophila melanogaster with 14 samples.

Results

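The UDP-glycosyltransferase (UGT) family was taken as every gene whose symbol begins with Ugt and a number, which gave 35 of the 13765 genes listed in both sets of tables of the series. All 35 are annotated as protein-coding, and 27 of them are given below with their values. What was measured is nuclear RNA of Drosophila melanogaster embryos, as reads counted on each gene. Nuclei were taken by INTACT, in which nuclei tagged in 1 tissue are pulled from an embryo lysate by affinity. The study asked how the Hox factor Ubx acts in mesodermal and neuronal tissue.

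The wild-type set held mesodermal nuclei (twi-INTACT, with the tag under the mesoderm factor gene twi) and neuronal nuclei (elav>INTACT, with the tag driven through the pan-neuronal gene elav). Embryos were at stages 14-17 or 10-13, and each combination of tissue and stage had 2 libraries. The degradation set was of mesodermal nuclei alone, at stages 14-17. Its 3 degraded libraries were twi-INTACT, Mef2>Nslmb, GFP-Ubx, in which the muscle driver Mef2 expresses Nslmb, a protein that sends GFP fusions to the proteasome. Its 3 control libraries were twi-INTACT; UAS-Nslmb, GFP-Ubx, with the Nslmb transgene and no driver. Both groups of that set carried GFP-tagged Ubx, so neither is wild type, and Mef2 and twi need not mark the same nuclei. Whether the replicates are separate embryo collections is not stated in the labels, so a p-value here reflects only how these libraries vary, which may be technical.

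UGTs are enzymes of the endoplasmic reticulum membrane that move a sugar, in insects mostly glucose, from a UDP-sugar onto small lipophilic molecules. The product is more soluble in water and easier to excrete. In insects they are known for clearing plant toxins and insecticides and for conjugating pigments, cuticle precursors and odorants, and fat body, midgut and Malpighian tubule are their best-known sites. Most members have no role established from a mutant. Among those with one, Ugt35C1 (formerly Ugt86Dd) has been tied to nicotine resistance of larvae, and Ugt36E1 to the handling of odorants in olfactory neurons. Ugt36A1 is Dorothy, a gene of the lymph gland and the pericardial cells, and Ugt35B1 (Ugt35b) is best known from the antenna. Ugt50B3 belongs to the subfamily most widely kept across insects.

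Assigned counts totalled 12970816 to 17905141 per wild-type mesoderm library, 27924215 to 36150646 per neuronal library, 24391565 to 28150883 per degraded library and 24314883 to 31033963 per control. Levels are CPM (TMM-normalised), each set scaled apart. Changes are log2 values ± SE from edgeR's quasi-likelihood test, and a member is called where the Benjamini-Hochberg adjusted p, taken over all genes tested, is under 5%. Scaling by library totals alone shifted the median change of all genes by -0.25 and -0.30 for mesoderm against neuronal nuclei at stages 10-13 and 14-17, by -0.17 and -0.11 for stage in mesoderm and in neuronal nuclei, and by at most 0.05 in size elsewhere.

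The mesoderm label was met by twi, the gene that the tag was under. It stood at 879 and 799.6 CPM in mesoderm of stages 14-17 and 371 and 437 CPM at stages 10-13. Neuronal libraries held 4.44 to 10.6 CPM of it. Of 12 muscle and mesoderm markers tested, edgeR called 10 higher in mesoderm and 0 lower at stages 14-17, and DESeq2 called 10. At stages 10-13, 6 were higher and 3 lower. Their sums then overlapped, at 11121 and 9876 CPM in mesoderm, against 9695 and 11134 CPM in neuronal nuclei. Mhc was among those lower in both mesoderm libraries, at 926 and 628 CPM, against 2784 and 2276 CPM. The neuronal label was not met by elav, which stayed at or under 0.344 CPM in all 8 wild-type libraries, against 129 to 161 CPM in the degradation set. Likewise Syx1A was at 0 in all 8, against 491 to 626 CPM in the degradation set. The reason for these low values was not tested. Summed over 12 neuron markers (Syx1A at 0), mesoderm of stages 14-17 held 1635 and 1384 CPM, against 1005 and 652 CPM in neuronal nuclei of those stages. At stages 10-13 the order was the other way, with 328 and 343 CPM in mesoderm, against 1069 and 753 CPM in neuronal nuclei, and 7 of 10 tested markers were lower in mesoderm and 0 higher (edgeR; 0 higher and 7 lower at an unadjusted p under 0.05; DESeq2 called 7). Ubx mRNA stood at 62.7 to 89.8 CPM in degraded libraries, against 60.3 to 71.0 CPM in controls. Nslmb acts on protein, so this does not check those labels.

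The 2 neuronal libraries of stages 14-17 stood apart from each other. Replicate 1 exceeded replicate 2 by over 2-fold in 5 members and replicate 2 exceeded replicate 1 by over 2-fold in 13. Of 12 midgut markers summed, replicate 1 held 205 CPM and replicate 2 held 1839 CPM, with digestive proteases such as Jon99Fi at 18.6 and 590 CPM and only mag at 0. Of that list, GATAe (97.2 and 49.2 CPM) and Try29F (18.7 and 6.08 CPM) were higher in replicate 1. Of 13 fat body markers, replicate 1 held 4050 CPM and replicate 2 held 1461 CPM, mostly apolpp, the lipoprotein gene, at 3712 and 1101 CPM, with Adh at 0, while FASN2 (3.93 and 34.4 CPM) and Desat1 (86.8 and 182 CPM) of that list were higher in replicate 2. Of 12 Malpighian tubule markers, replicate 1 held 1016 CPM and replicate 2 held 1725 CPM, with none at 0. Vha55 stood at 249 and 737 CPM, Uro at 2.31 and 50.7 CPM and Alp4 at 2.66 and 160.4 CPM. The other way went ct (246 and 192 CPM), tsh (388 and 284 CPM), DIP-beta (30.6 and 9.23 CPM) and Best4 (2.56 and 0.301 CPM). The part of such cells in the UGT levels was not tested. In bulk nuclei, fewer cells of a type and less RNA per cell cannot be told apart.

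The 35 genes lay at 19 places in the genome (BDGP6 coordinates from the Ensembl annotation), 6 of which held more than 1 member and 22 members together. The largest run held 9 genes within 26.885 kb at 3R:11151026-11177910, in the order Ugt302K1, Ugt302E1, Ugt302C1, Ugt35E1, Ugt35E2, Ugt35B1, Ugt35A1, Ugt304A1 and Ugt303A1, with 1 other protein-coding gene, CG4757, among them. Groups of 3 lay at 2L:16794211-16801584 (Ugt37C2, Ugt37E1, Ugt37D1), 2L:18819344-18829059 (Ugt36F1, Ugt36D1, Ugt36E1) and 3R:23532945-23538908 (Ugt303B3, Ugt303B1, Ugt303B2). Pairs lay at 2R:21212880-21217779 (Ugt49B1, Ugt49C1) and 3R:12739642-12743680 (Ugt37A2, Ugt37A3). The other 13 stood singly, among them Ugt35D1 (FBgn0051002) at 3R:31393582-31395304, Ugt317A1 (FBgn0040091) at 2R:22641786-22643917, Ugt305A1 at 3L:4059770-4061923, Ugt316A1 at 3L:19059400-19062816 and Ugt301D1 at 2L:18509560-18513512. The summed exons of a member measured 1513 to 3316 bp, with a median of 1758 bp. No member lay inside another gene, but Ugt36A1 had 18.7% of its span overlapped by the antisense gene CG15418, which had 1 to 9 counts per library. Reads that fit more than 1 place were not counted in the degradation set, and how far neighbouring paralogs lost reads this way is not analysed here.

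**Figure D1:**
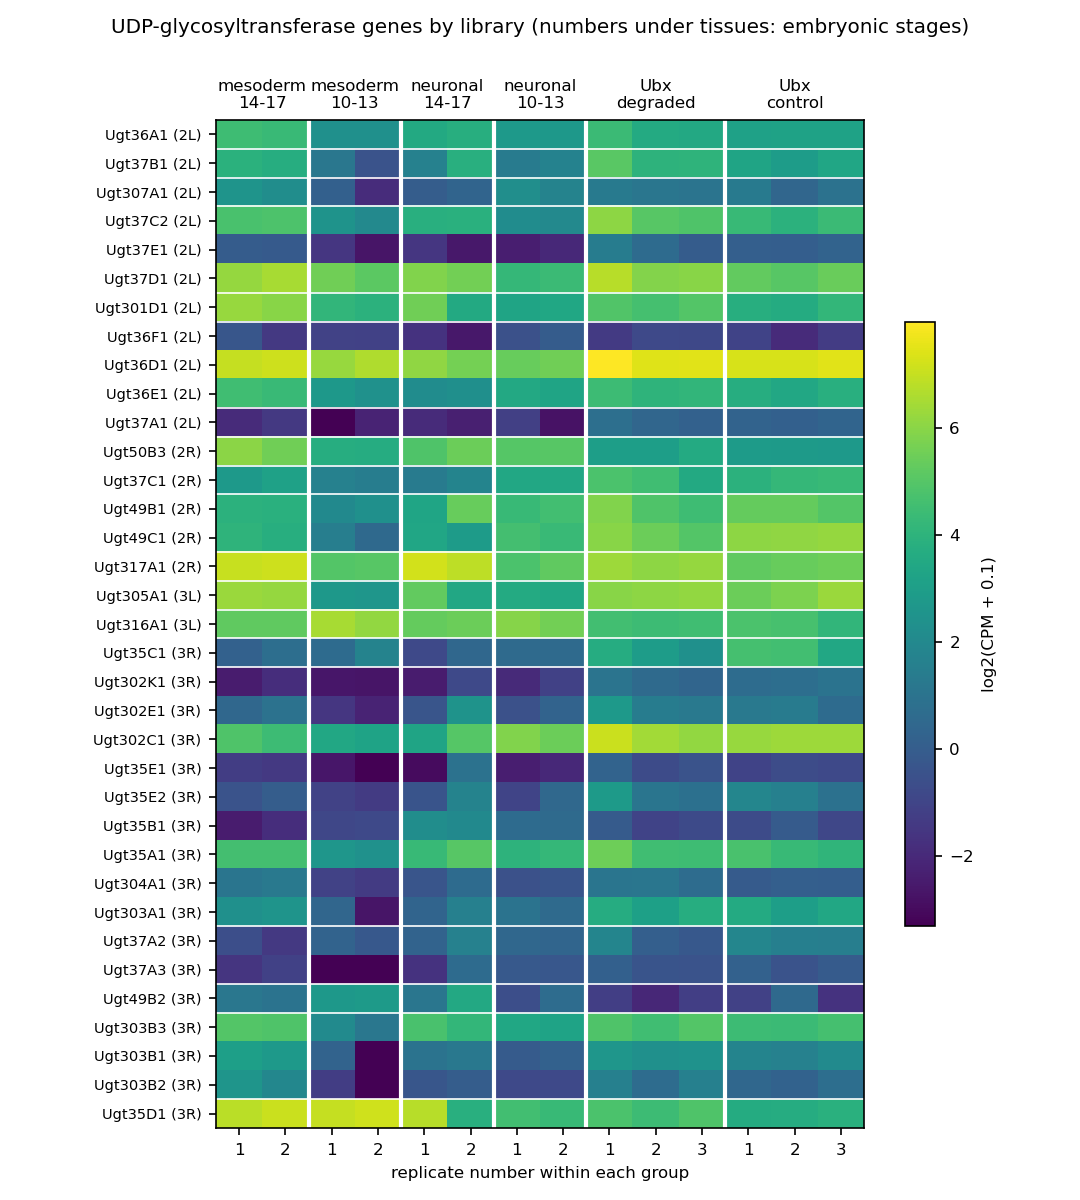
Levels of all 35 UGT genes (rows, in chromosomal order, with the chromosome arm) in each of the 14 libraries (columns), as log2(CPM + 0.1); white lines part the groups and the genomic runs. Ugt36D1, Ugt317A1 and Ugt37D1 are bright in every group, Ugt35D1 is brightest in wild-type mesoderm, and the run from Ugt302K1 to Ugt303A1 holds both bright and dark rows.

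Transcripts of the whole family summed to 946 and 955 CPM in mesoderm at stages 14-17, against 472 and 469 CPM at stages 10-13. In neuronal nuclei the sum was 668 and 559.5 CPM at stages 14-17, against 407 and 392 CPM at stages 10-13. The degraded libraries held 1165, 787 and 784 CPM, against 695, 687 and 747 CPM in controls. The late sums thus lay above the early ones in both tissues, and the degraded sums above all 3 control sums, with replicate 1 farthest. A member reached a mean of 5 CPM in 21 cases in mesoderm at stages 14-17, 13 at stages 10-13, 17 and 16 in neuronal nuclei at stages 14-17 and 10-13, 21 in degraded nuclei and 20 in controls.

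Per kb of exon, the 4 highest genes carried between 41.6 and 72.0% of the family's level, depending on the group. In mesoderm at stages 14-17 the highest were Ugt35D1 (74.5 ± 10.3), Ugt317A1 (73.7 ± 3.41), Ugt36D1 (59.0 ± 4.66) and Ugt37D1 (42.0 ± 5.95) CPM per kb (mean ± SD, n = 2), which made up 52.1% of the family. At stages 10-13 they were Ugt35D1 (81.1 ± 7.15), Ugt36D1 (38.7 ± 7.0), Ugt316A1 (25.4 ± 4.36) and Ugt37D1 (20.8 ± 3.77) CPM per kb, or 72.0%. Ugt35D1 alone made up 35.2% of the family's level per kb there. In neuronal nuclei at stages 14-17 they were Ugt317A1 (71.6 ± 12.6), Ugt35D1 (37.5 ± 41.1), Ugt37D1 (26.6 ± 3.45) and Ugt36D1 (26.3 ± 6.19) CPM per kb, or 52.4%, and the spread of Ugt35D1 exceeded its mean. At stages 10-13 they were Ugt302C1 (25.3 ± 5.09), Ugt36D1 (19.3 ± 1.72), Ugt316A1 (17.4 ± 2.95) and Ugt317A1 (17.3 ± 3.66) CPM per kb, or 41.6% of the family. By this measure, on group means, the early neuronal repertoire was the least concentrated of the 4 wild-type groups. By CPM the libraries overlapped: the 4 highest held 47.4 and 44.7% in these libraries, and 58.0 and 46.0% in neuronal libraries of stages 14-17. In degraded nuclei the highest were Ugt36D1 (88.9 ± 19.7), Ugt302C1 (49.0 ± 17.1), Ugt37D1 (39.8 ± 14.0) and Ugt317A1 (39.6 ± 3.83) CPM per kb (n = 3), or 47.2%. In controls they were Ugt36D1 (72.4 ± 6.09), Ugt302C1 (39.5 ± 1.16), Ugt49C1 (36.6 ± 1.62) and Ugt305A1 (29.9 ± 9.08) CPM per kb (n = 3), or 50.02%. Ugt36D1 stood above the second gene by more than the SD in both groups of the degradation set, and Ugt35D1 did so in mesoderm at stages 10-13. Ugt35D1 and Ugt317A1 in mesoderm at stages 14-17 differed by less than theirs, as did the genes after the first in neuronal nuclei at both times and in degraded nuclei. Exon length may not be the length counted in the wild-type tables: TpnC4, a gene inside an intron of Ugt50B3, had 0 counts in every wild-type library, against 7 to 22 in the degradation set.

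**Figure D2:**
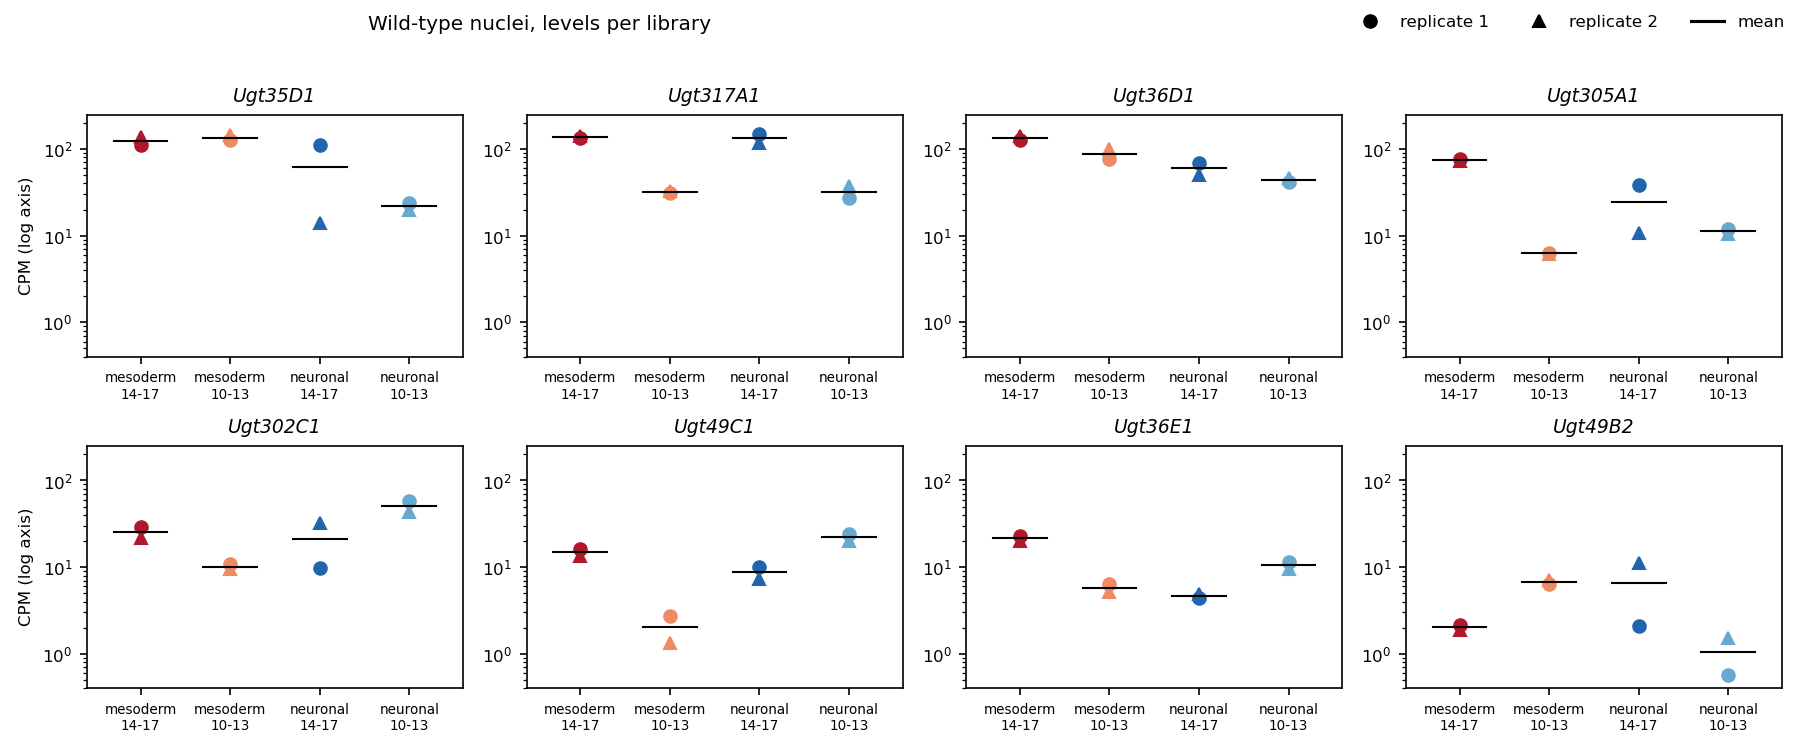
CPM on a log axis for 8 members in the 4 wild-type groups, 1 point per library (circle for replicate 1, triangle for replicate 2) and a line at the mean. Ugt305A1 has 77.3 and 73.1 CPM in mesoderm at stages 14-17, against 6.36 and 6.11 CPM at stages 10-13, and the neuronal libraries of stages 14-17 lie far apart for Ugt35D1, Ugt305A1, Ugt302C1 and Ugt49B2.

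From stages 10-13 to 14-17 in mesoderm, most measured UGT genes gained RNA. Of the 32 members that passed the filter on low counts, 20 rose, 2 fell and 10 were not called, against 24.9% of all 10549 genes called higher and 22.7% called lower. Called members made up 68.8% of those tested, against 47.7% of all genes, and the median change was 2.10 (2.09 with Ugt37A3, at 0 in the early group, set to its bound), against 0.00 for all genes. The rises covered genes of high and of low level and lay on all 4 chromosome arms that hold members. The count of called members fell without any 1 mesoderm library or neuronal library of stages 10-13. It rose without either neuronal library of stages 14-17. The count over all genes moved the same way each time. With only the 2 mesoderm groups in the fit, 25 members were called (6443 of all genes, against 5027). DESeq2 called 24 (5103 of all genes).

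Among the risers, 5 reached means above 50 CPM at stages 14-17. Ugt317A1 had 133 and 142 CPM at stages 14-17, against 31.2 and 32.7 CPM at stages 10-13, a change of 2.11 ± 0.22 (adjusted p = 0.000501). Ugt305A1 had 77.3 and 73.1 CPM at stages 14-17, against 6.36 and 6.11 CPM at stages 10-13, a change of 3.59 ± 0.54 (adjusted p = 0.00181). Ugt301D1 had 76.5 and 63.3 CPM at stages 14-17, against 17.4 and 15.4 CPM at stages 10-13, a change of 2.09 ± 0.55 (adjusted p = 0.0173). Each of these was several times higher in both late libraries than in both early ones. Ugt37D1 had 73.8 and 90.3 CPM at stages 14-17, against 45.9 and 35.5 CPM at stages 10-13, a change of 1.01 ± 0.21 (adjusted p = 0.00708). Ugt50B3, of the most widely kept subfamily, had 64.4 and 46.0 CPM at stages 14-17, against 13.1 and 12.7 CPM at stages 10-13, a change of 2.10 ± 0.27 (adjusted p = 0.000912). Their groups did not overlap either, with Ugt37D1 rising least.

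A second tier rose to between 20 and 31 CPM. Ugt303B3 had 31.0 and 29.6 CPM at stages 14-17, against 4.18 and 2.15 CPM at stages 10-13, a change of 3.26 ± 0.37 (adjusted p = 0.000595). Ugt37C2 had 26.7 and 28.3 CPM at stages 14-17, against 5.48 and 3.96 CPM at stages 10-13, a change of 2.54 ± 0.25 (adjusted p = 0.000425). Ugt35A1 had 24.5 and 24.3 CPM at stages 14-17, against 6.04 and 5.18 CPM at stages 10-13, a change of 2.12 ± 0.30 (adjusted p = 0.00136). In all 3, the late libraries agreed closely and lay well above the early libraries. Ugt36E1, tied to odorant handling, had 23.0 and 19.96 CPM at stages 14-17, against 6.42 and 5.18 CPM at stages 10-13, a change of 1.89 ± 0.25 (adjusted p = 0.00104). Ugt36A1, the pericardial and lymph gland gene Dorothy, had 22.4 and 20.3 CPM at stages 14-17, against 4.99 and 5.06 CPM at stages 10-13, a change of 2.09 ± 0.22 (adjusted p = 0.000533). Both late libraries of each were above both early ones. Ugt49C1 had 16.1 and 13.5 CPM at stages 14-17, against 2.74 and 1.34 CPM at stages 10-13, a change of 2.86 ± 0.38 (adjusted p = 0.00113). Ugt49B1 had 15.2 and 14.6 CPM at stages 14-17, against 4.05 and 5.01 CPM at stages 10-13, a change of 1.72 ± 0.58 (adjusted p = 0.0437). Ugt37B1 had 15.01 and 13.1 CPM at stages 14-17, against 2.12 and 0.64 CPM at stages 10-13, a change of 3.35 ± 0.81 (adjusted p = 0.0121). These 3 ended near 15 CPM, and Ugt37B1 had the widest early spread. The call of Ugt49B1 was lost with limma-voom (adjusted p = 0.17).

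The remaining named risers stayed at low levels. Ugt37C1 had 6.59 and 8.81 CPM at stages 14-17, against 2.99 and 2.68 CPM at stages 10-13, a change of 1.44 ± 0.30 (adjusted p = 0.00676). Ugt303B1 had 8.26 and 6.57 CPM at stages 14-17, against 1.12 and 0 CPM at stages 10-13, a change of 3.73 ± 1.04 (adjusted p = 0.0211). Ugt303A1 had 5.08 and 5.67 CPM at stages 14-17, against 1.25 and 0.0582 CPM at stages 10-13, a change of 3.05 ± 0.97 (adjusted p = 0.0343). In Ugt303B1 and Ugt303A1 the early replicate 2 had 0 and 0.0582 CPM, where a count of 0 allows up to 0.175 CPM. Ugt307A1 had 5.64 and 4.59 CPM at stages 14-17, against 0.997 and 0.175 CPM at stages 10-13, a change of 3.13 ± 0.68 (adjusted p = 0.00773). Ugt303B2 had 5.96 and 3.69 CPM at stages 14-17, against 0.312 and 0 CPM at stages 10-13, a change of 4.94 ± 0.90 (adjusted p = 0.00378). Ugt304A1 had 1.99 and 2.25 CPM at stages 14-17, against 0.374 and 0.291 CPM at stages 10-13, a change of 2.65 ± 0.55 (adjusted p = 0.00654). The early groups of Ugt303B1, Ugt303B2, Ugt303A1 and Ugt307A1 rest on few counts, and without mesoderm replicate 1 of stages 10-13 their changes became 10.6, 9.97, 6.38 and 4.80, values that depend on the prior count. Ugt37E1, which rose at 2.44 ± 0.86 (adjusted p = 0.0492), never exceeded 0.873 CPM in the wild-type set. The calls of Ugt36A1, Ugt307A1, Ugt37C2, Ugt36E1, Ugt50B3, Ugt49C1, Ugt317A1, Ugt305A1, Ugt316A1, Ugt35A1, Ugt303B3 and Ugt303B2 held without each library in turn, and the other 9 named calls were each lost without at least 1.

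Ugt316A1 and Ugt35B1 were the 2 members called lower at stages 14-17 in mesoderm. Ugt316A1 had 37.9 and 37.4 CPM at stages 14-17, against 89.9 and 70.5 CPM at stages 10-13, a change of -1.09 ± 0.21 (adjusted p = 0.00443). Ugt35B1, the antennal gene, had 0.0794 and 0.18 CPM at stages 14-17, against 0.436 and 0.466 CPM at stages 10-13, a change of -1.79 ± 0.59 (adjusted p = 0.0481). Ugt316A1 was thus well expressed at both stages, whereas Ugt35B1 was at or under 0.466 CPM in all 4 of these libraries. Its call was lost without each library in turn (adjusted p 0.0513 to 0.281), with DESeq2 (0.161), with limma-voom (0.101), with DESeq2 size factors (0.0517) and with no filter (0.0539). Some of the highest genes did not pass the test. Ugt35D1 had 112 and 136 CPM at stages 14-17, against 126 and 143 CPM at stages 10-13, a change of -0.12 ± 0.74 (adjusted p = 0.908). Ugt36D1 had 127 and 142 CPM at stages 14-17, against 76.9 and 99.4 CPM at stages 10-13, a change of 0.61 ± 0.23 (adjusted p = 0.0607). Ugt302C1 had 29.0 and 21.5 CPM at stages 14-17, against 10.9 and 9.43 CPM at stages 10-13, a change of 1.31 ± 0.51 (adjusted p = 0.0658). The late libraries of Ugt36D1 and Ugt302C1 nevertheless lay above the early ones, while those of Ugt35D1 overlapped. Ugt49B2 had 2.14 and 1.89 CPM at stages 14-17, against 6.36 and 7.16 CPM at stages 10-13, a change of -1.74 ± 0.79 (adjusted p = 0.106). Ugt35C1, tied to nicotine resistance, had 1.03 and 1.62 CPM at stages 14-17, against 1.43 and 3.26 CPM at stages 10-13, a change of -0.83 ± 0.63 (adjusted p = 0.315). Ugt37A2 had 0.556 and 0.27 CPM at stages 14-17, against 1.12 and 0.757 CPM at stages 10-13, a change of -1.16 ± 0.69 (adjusted p = 0.205). For Ugt49B2 and Ugt37A2 the late libraries were the lower ones, and Ugt35C1 overlapped. With only the 2 mesoderm groups in the edgeR fit, Ugt36D1 (adjusted p = 0.0178), Ugt302C1 (0.00278) and Ugt49B2 (0.00197) were called. DESeq2 called Ugt36D1 (adjusted p = 0.043) and Ugt302C1 (0.0188) as well.

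Marker sums of other cells also differed between the mesoderm groups. Fat body markers summed to 7972 and 7427 CPM at stages 14-17, against 3262 and 3952 CPM at stages 10-13, though 0 of 12 tested rose and 1 fell (edgeR; 1 higher and 1 lower at an unadjusted p under 0.05; DESeq2 called 3), and apolpp carried most of the sum. Epidermis and cuticle markers summed to 2345 and 2259 CPM, against 892 and 1116 CPM, and 8 of 11 tested rose and 1 fell, with Tb at 0 in every wild-type library. Hemocyte markers summed to 4651 and 4388 CPM, against 779.6 and 730.4 CPM, with 4 of 9 higher and 1 lower. Neuron markers summed to 1635 and 1384 CPM, against 328 and 343 CPM, and 10 of 10 tested rose, with Syx1A at 0 in these 4 libraries. Their part in the UGT rises was not tested.

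**Figure D3:**
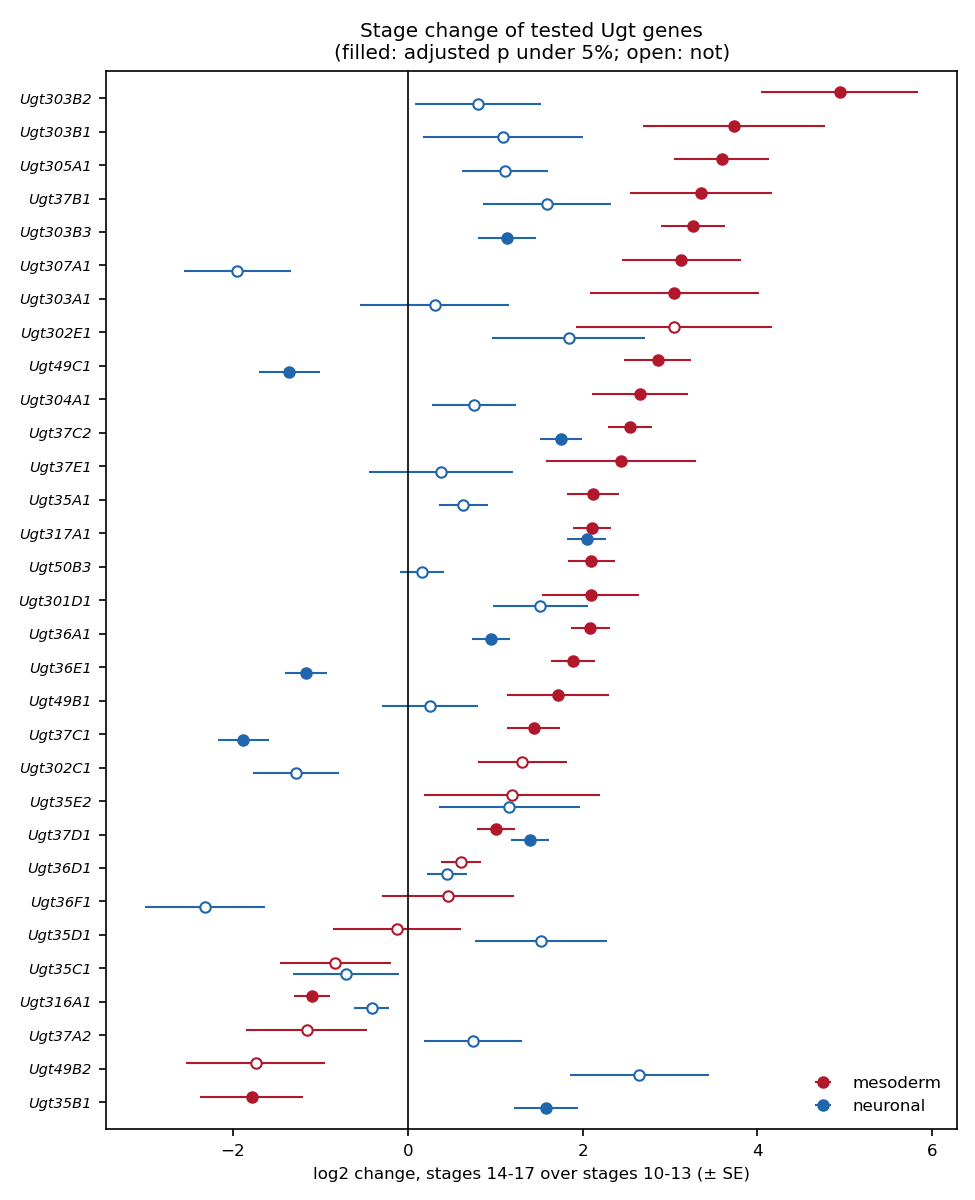
Log2 change of stages 14-17 over stages 10-13 with its SE for each tested member except Ugt37A3, whose early mesoderm group was at 0 counts. Red points are mesoderm and blue points neuronal, filled where the adjusted p is under 5%; in mesoderm 20 tested members are called higher (Ugt37E1 among them), and Ugt36E1, Ugt37C1 and Ugt49C1 have filled blue points on the other side of 0.

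In neuronal nuclei members were called with stage in both directions. Of 32 tested members, 6 rose and 3 fell, against 8.47% of all genes called higher and 12% called lower. Called members made up 28.1%, against 20.4% of all genes, and the median change was 0.76, against -0.03 for all genes. The count of 9 became 2 and 5 without neuronal replicates 1 and 2 of stages 10-13, and 19 and 15 without neuronal replicates 1 and 2 of stages 14-17. With only these 4 libraries in the fit, 4 members were called, and Ugt36A1 (adjusted p = 0.13), Ugt36E1 (0.113), Ugt49C1 (0.0725), Ugt35B1 (0.0913) and Ugt303B3 (0.0965), given below, were not. Epidermis and cuticle markers summed to 1442 and 2095 CPM in neuronal nuclei at stages 14-17, against 4557 and 4018 CPM at stages 10-13, and 7 of 11 tested fell and 0 rose (edgeR; 0 higher and 7 lower at an unadjusted p under 0.05; DESeq2 called 7). Their part in the UGT changes was not tested.

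The 6 risers included 5 that rose in mesoderm too. Ugt317A1 stood at 150.1 and 117 CPM at stages 14-17, against 27.5 and 37.1 CPM at stages 10-13, a change of 2.05 ± 0.22 (adjusted p = 0.00206). Ugt37C2 stood at 14.0 and 14.2 CPM at stages 14-17, against 4.47 and 3.90 CPM at stages 10-13, a change of 1.75 ± 0.24 (adjusted p = 0.00435). Ugt37D1 stood at 56.7 and 47.1 CPM at stages 14-17, against 18.6 and 20.7 CPM at stages 10-13, a change of 1.40 ± 0.22 (adjusted p = 0.00647). All 3 had both late libraries above both early ones. Ugt36A1, Dorothy, stood at 11.7 and 13.5 CPM at stages 14-17, against 6.63 and 6.40 CPM at stages 10-13, a change of 0.95 ± 0.21 (adjusted p = 0.0232). Ugt303B3 stood at 26.4 and 18.0 CPM at stages 14-17, against 10.7 and 9.48 CPM at stages 10-13, a change of 1.14 ± 0.33 (adjusted p = 0.0482). Ugt35B1 stood at 4.60 and 3.98 CPM at stages 14-17, against 1.47 and 1.40 CPM at stages 10-13, a change of 1.58 ± 0.37 (adjusted p = 0.0253). Its call in mesoderm was the opposite, but that one rests on few counts. The 3 members that fell here follow. Ugt36E1 stood at 4.44 and 4.88 CPM at stages 14-17, against 11.3 and 9.63 CPM at stages 10-13, a change of -1.17 ± 0.24 (adjusted p = 0.0178). Ugt37C1 stood at 2.53 and 3.34 CPM at stages 14-17, against 10.8 and 10.8 CPM at stages 10-13, a change of -1.88 ± 0.30 (adjusted p = 0.00691). Ugt49C1 stood at 10.1 and 7.29 CPM at stages 14-17, against 24.3 and 20.3 CPM at stages 10-13, a change of -1.36 ± 0.35 (adjusted p = 0.033). All 3 had risen in mesoderm. The calls of Ugt37C2 and Ugt317A1 held without each library in turn, and the other 7 were each lost without at least 1.

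Members whose late replicates differed by over 2-fold were not called. Ugt35D1 stood at 111 and 14.0 CPM at stages 14-17, against 23.9 and 19.6 CPM at stages 10-13, a change of 1.52 ± 0.75 (adjusted p = 0.189). Ugt301D1 stood at 46.2 and 11.6 CPM at stages 14-17, against 9.54 and 10.7 CPM at stages 10-13, a change of 1.52 ± 0.54 (adjusted p = 0.0889). Ugt305A1 stood at 38.0 and 10.9 CPM at stages 14-17, against 12.01 and 10.6 CPM at stages 10-13, a change of 1.11 ± 0.49 (adjusted p = 0.147). For these 3, replicate 1 of the late libraries was the high one. Ugt302C1 stood at 9.79 and 32.0 CPM at stages 14-17, against 57.7 and 43.3 CPM at stages 10-13, a change of -1.28 ± 0.49 (adjusted p = 0.108). Ugt49B1 stood at 10.1 and 41.2 CPM at stages 14-17, against 19.5 and 23.3 CPM at stages 10-13, a change of 0.26 ± 0.55 (adjusted p = 0.765). Ugt49B2 stood at 2.10 and 11.2 CPM at stages 14-17, against 0.563 and 1.52 CPM at stages 10-13, a change of 2.65 ± 0.79 (adjusted p = 0.052). Here replicate 2 was the high one, and without it the change of Ugt49B1 turned to -1.03 (adjusted p = 0.0288). Ugt37B1 stood at 3.01 and 14.2 CPM at stages 14-17, against 2.5 and 3.18 CPM at stages 10-13, a change of 1.59 ± 0.73 (adjusted p = 0.162). Ugt303A1 stood at 1.16 and 2.98 CPM at stages 14-17, against 1.91 and 1.42 CPM at stages 10-13, a change of 0.31 ± 0.85 (adjusted p = 0.823). Ugt304A1 stood at 0.699 and 1.47 CPM at stages 14-17, against 0.594 and 0.674 CPM at stages 10-13, a change of 0.76 ± 0.48 (adjusted p = 0.29). The same held for these low genes. Ugt35C1 stood at 0.457 and 1.27 CPM at stages 14-17, against 1.41 and 1.40 CPM at stages 10-13, with no call. Ugt37A2 stood at 1.10 and 3.01 CPM at stages 14-17, against 1.25 and 1.18 CPM at stages 10-13, with no call. In both, replicate 2 of the late libraries was again the higher.

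The rest had closer replicates and no call. Ugt36D1 stood at 69.8 and 49.8 CPM at stages 14-17, against 41.2 and 46.7 CPM at stages 10-13, a change of 0.45 ± 0.23 (adjusted p = 0.2). Ugt316A1 stood at 39.3 and 43.1 CPM at stages 14-17, against 61.5 and 48.3 CPM at stages 10-13, a change of -0.41 ± 0.20 (adjusted p = 0.185). Ugt35A1 stood at 19.5 and 33.1 CPM at stages 14-17, against 15.6 and 18.3 CPM at stages 10-13, a change of 0.63 ± 0.28 (adjusted p = 0.146). Ugt36D1 and Ugt35A1 lay above their early libraries at stages 14-17, and Ugt316A1 below. Ugt50B3 stood at 29.3 and 43.6 CPM at stages 14-17, against 32.6 and 32.7 CPM at stages 10-13, a change of 0.16 ± 0.25 (adjusted p = 0.682). Ugt307A1 stood at 0.914 and 1.14 CPM at stages 14-17, against 4.69 and 3.25 CPM at stages 10-13, a change of -1.95 ± 0.61 (adjusted p = 0.0604). Ugt50B3 overlapped between stages, whereas both late libraries of Ugt307A1 were under both early ones. Ugt303B1 stood at 1.86 and 2.21 CPM at stages 14-17, against 0.845 and 1.06 CPM at stages 10-13, a change of 1.09 ± 0.91 (adjusted p = 0.426). Ugt303B2 stood at 0.726 and 0.903 CPM at stages 14-17, against 0.469 and 0.457 CPM at stages 10-13, a change of 0.81 ± 0.72 (adjusted p = 0.456). Both of these stayed low, with the late libraries above the early ones.

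The test of the difference between the 2 stage changes separates members that moved differently by tissue. It passed for 13 of 32 tested members (40.6%, against 35.4% of all genes), 11 with the more positive change in mesoderm and 2 with the less positive, against 20.6% and 14.7% of all genes. The median difference was 1.62 for members, against -0.11 for all genes. The largest positive differences were those of Ugt307A1 (5.08 ± 0.91, adjusted p = 0.00547), Ugt49C1 (4.22 ± 0.52, adjusted p = 0.00135) and Ugt303B2 (4.14 ± 1.16, adjusted p = 0.0288). Ugt37C1 and Ugt36E1 differed by 3.32 ± 0.42 and 3.06 ± 0.34. Ugt302C1 differed by 2.59 ± 0.71, Ugt305A1 by 2.48 ± 0.70, Ugt303B3 by 2.12 ± 0.48 and Ugt50B3 by 1.94 ± 0.36. Ugt35A1 and Ugt36A1 differed by 1.48 ± 0.40 and 1.14 ± 0.31. On the other side stood Ugt49B2 at -4.39 ± 1.12 and Ugt35B1 at -3.37 ± 0.69.

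For Ugt317A1, called higher with stage in both tissues, the difference was 0.06 ± 0.30, and for Ugt37D1 it was -0.39 ± 0.30, neither called. The differences of Ugt307A1, Ugt36E1, Ugt50B3, Ugt37C1 and Ugt49C1 held without each library in turn. Without mesoderm replicates 1 and 2 of stages 14-17 there were 5 and 7 calls, without neuronal replicates 1 and 2 of stages 10-13 there were 6 and 8, and without neuronal replicate 2 of stages 14-17 there were 20, with Ugt49B2 then at -2.81. With limma-voom Ugt49B2 was not called (adjusted p = 0.065), and with library totals alone Ugt305A1 was not (adjusted p = 0.05). Ugt303B2 became 9.13 without mesoderm replicate 1 of stages 10-13. Of the markers of other cells, 8 of 11 tested for epidermis and cuticle and 9 of 10 for neurons also had the more positive stage change in mesoderm, and their part was not tested.

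At stages 10-13 most differing UGT genes were lower in mesoderm than in neuronal nuclei. Of 32 tested members 4 were higher and 11 lower, against 23.2% of all genes called higher and 29.5% called lower. The share called, 46.9%, was under the 52.8% of all genes, and the median was -0.98, against -0.08. With library totals alone the members' split was 4 and 12 and their median -1.23, and the share of all called genes that was higher was 31.0%, against 44.0% otherwise. The 4 higher genes included 3 of the family's most abundant. Ugt35D1 averaged 135 ± 11.9 CPM in mesoderm, against 21.7 ± 3.06 CPM in neuronal nuclei, a difference of 2.63 ± 0.78 (adjusted p = 0.0244). Ugt36D1 averaged 88.2 ± 15.9 CPM in mesoderm, against 43.9 ± 3.91 CPM in neuronal nuclei, a difference of 1.0 ± 0.23 (adjusted p = 0.00837). Ugt37D1 averaged 40.7 ± 7.37 CPM in mesoderm, against 19.7 ± 1.47 CPM in neuronal nuclei, a difference of 1.05 ± 0.21 (adjusted p = 0.00536). Both mesoderm libraries lay above both neuronal ones in each (n = 2 per group here and in the tissue comparisons that follow). Ugt49B2 averaged 6.76 ± 0.568 CPM in mesoderm, against 1.04 ± 0.674 CPM in neuronal nuclei, a difference of 2.68 ± 0.79 (adjusted p = 0.0242). It too did not overlap.

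The 11 lower genes were led, by adjusted p, by Ugt49C1. Ugt49C1 averaged 2.04 ± 0.992 CPM in mesoderm, against 22.3 ± 2.86 CPM in neuronal nuclei, a difference of -3.45 ± 0.39 (adjusted p = 0.000458). Ugt302C1 averaged 10.2 ± 1.04 CPM in mesoderm, against 50.5 ± 10.2 CPM in neuronal nuclei, a difference of -2.31 ± 0.52 (adjusted p = 0.00765). Ugt49B1 averaged 4.53 ± 0.675 CPM in mesoderm, against 21.4 ± 2.71 CPM in neuronal nuclei, a difference of -2.24 ± 0.59 (adjusted p = 0.0148). All 3 were several times lower in both mesoderm libraries. Ugt37C1 averaged 2.83 ± 0.222 CPM in mesoderm, against 10.8 ± 0.0278 CPM in neuronal nuclei, a difference of -1.93 ± 0.30 (adjusted p = 0.00163). Ugt303B3 averaged 3.16 ± 1.43 CPM in mesoderm, against 10.1 ± 0.881 CPM in neuronal nuclei, a difference of -1.68 ± 0.35 (adjusted p = 0.00568). Ugt35A1 averaged 5.61 ± 0.611 CPM in mesoderm, against 16.9 ± 1.90 CPM in neuronal nuclei, a difference of -1.59 ± 0.29 (adjusted p = 0.0033). The groups did not overlap for these either. Ugt50B3 averaged 12.9 ± 0.281 CPM in mesoderm, against 32.6 ± 0.121 CPM in neuronal nuclei, a difference of -1.34 ± 0.26 (adjusted p = 0.00421). Ugt36E1 averaged 5.80 ± 0.875 CPM in mesoderm, against 10.5 ± 1.20 CPM in neuronal nuclei, a difference of -0.85 ± 0.24 (adjusted p = 0.0202). Ugt307A1 averaged 0.586 ± 0.582 CPM in mesoderm, against 3.97 ± 1.02 CPM in neuronal nuclei, a difference of -2.76 ± 0.67 (adjusted p = 0.0107). Without mesoderm replicate 1 of stages 10-13 the difference of Ugt307A1 was -4.40. Ugt35B1 averaged 0.451 ± 0.0208 CPM in mesoderm, against 1.43 ± 0.0525 CPM in neuronal nuclei, a difference of -1.66 ± 0.42 (adjusted p = 0.0126). Ugt37A3 had 0 counts in both mesoderm libraries, against 25 and 31 in neuronal nuclei, so it was at least 4.23-fold lower (3 counts per library taken as the floor). The calls of Ugt37D1, Ugt50B3, Ugt37C1, Ugt49C1, Ugt302C1, Ugt35A1 and Ugt303B3 held without each library in turn, and the other 7 named ones did not. With limma-voom Ugt49B1 was not called (adjusted p = 0.0558).

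Markers of other cells differed at these stages as well. Epidermis and cuticle markers summed to 892 and 1116 CPM in mesoderm, against 4557 and 4018 CPM in neuronal nuclei, and 2 of 11 tested were higher in mesoderm and 8 lower. Midgut markers summed to 175 and 205 CPM in mesoderm, against 412 and 511 CPM in neuronal nuclei, with 1 of 11 higher and 7 lower. Of the mesoderm sums, GATAe held 154 and 190 CPM. Hemocyte markers summed to 779.6 and 730.4 CPM in mesoderm, against 1217 and 1082 CPM in neuronal nuclei, with 3 of 9 higher and 5 lower. Their part in the UGT differences was not tested.

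At stages 14-17 the direction was mostly the other way. Of 32 tested members 10 were higher in mesoderm and 2 lower, against 19% of all genes called higher and 22.1% called lower. Called members made up 37.5%, against 41.1% of all genes, and the median was 0.74, against -0.12. With library totals alone 5 were higher and 2 lower, the median was 0.45, and the share of all called genes that was higher was 27.9%, against 46.2% otherwise. The count of 12 became 3 and 2 without mesoderm replicates 1 and 2 of stages 14-17, 7 without neuronal replicate 1 or without replicate 2 of stages 10-13, and 21 without neuronal replicate 1 of stages 14-17. Hemocyte markers summed to 4651 and 4388 CPM in mesoderm, against 1519 and 1754 CPM in neuronal nuclei, with 4 of 9 higher and 1 lower. Fat body markers summed to 7972 and 7427 CPM in mesoderm, against 4050 and 1461 CPM in neuronal nuclei, with 2 of 12 higher and 0 lower (edgeR; 3 and 0 at an unadjusted p under 0.05; DESeq2 called 2). Midgut markers summed to 320.4 and 288 CPM in mesoderm, against 205 and 1839 CPM in neuronal nuclei, with 1 of 11 higher and 7 lower. Neuron markers, given above, were higher in 3 of 10. The part of such cells in these differences was not tested. The 3 members lower in mesoderm at stages 10-13 and higher at stages 14-17 were Ugt307A1, Ugt36E1 and Ugt37C1. Ugt36E1 averaged 21.5 ± 2.17 CPM in mesoderm, against 4.66 ± 0.313 CPM in neuronal nuclei, a difference of 2.21 ± 0.25 (adjusted p = 0.00144). Ugt37C1 averaged 7.70 ± 1.57 CPM in mesoderm, against 2.94 ± 0.576 CPM in neuronal nuclei, a difference of 1.39 ± 0.30 (adjusted p = 0.0101). Ugt307A1 averaged 5.11 ± 0.743 CPM in mesoderm, against 1.03 ± 0.157 CPM in neuronal nuclei, a difference of 2.32 ± 0.62 (adjusted p = 0.0224). Every mesoderm library lay above every neuronal one in these 3.

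Ugt36D1 and Ugt37D1 were called higher in mesoderm at both times. Ugt36D1 averaged 134 ± 10.6 CPM in mesoderm, against 59.8 ± 14.1 CPM in neuronal nuclei, a difference of 1.17 ± 0.23 (adjusted p = 0.00775). Ugt37D1 averaged 82.1 ± 11.6 CPM in mesoderm, against 51.9 ± 6.74 CPM in neuronal nuclei, a difference of 0.66 ± 0.21 (adjusted p = 0.041). Ugt37C2 averaged 27.5 ± 1.17 CPM in mesoderm, against 14.1 ± 0.2 CPM in neuronal nuclei, a difference of 0.96 ± 0.24 (adjusted p = 0.0162). The last, which lies in the same run as Ugt37D1, was called at these stages but not at stages 10-13. Ugt305A1 averaged 75.2 ± 2.93 CPM in mesoderm, against 24.4 ± 19.2 CPM in neuronal nuclei, a difference of 1.62 ± 0.49 (adjusted p = 0.0343). Ugt303B2 averaged 4.82 ± 1.6 CPM in mesoderm, against 0.814 ± 0.125 CPM in neuronal nuclei, a difference of 2.56 ± 0.72 (adjusted p = 0.0256). Ugt36A1 averaged 21.4 ± 1.46 CPM in mesoderm, against 12.6 ± 1.32 CPM in neuronal nuclei, a difference of 0.76 ± 0.21 (adjusted p = 0.0258). The difference of Ugt305A1 was 2.76 without neuronal replicate 1 of stages 14-17 and 0.949 without replicate 2. With library totals alone 4 of these were not called, Ugt36A1 at 0.46 (adjusted p = 0.103), Ugt37C2 at 0.66 (adjusted p = 0.0592), Ugt305A1 at 1.25 (adjusted p = 0.0961) and Ugt37D1 at 0.34 (adjusted p = 0.276). With only these 2 groups in the fit, Ugt37D1 (adjusted p = 0.0912), Ugt36A1 (0.0652), Ugt305A1 (0.11) and Ugt37A2 (0.0798), described next, were not called. Ugt37D1 was also lost with no filter (adjusted p = 0.0515) and Ugt37A2 with limma-voom (adjusted p = 0.0752). Ugt37E1 was called too, at 2.37 ± 0.77, on levels under 1 CPM. Lower in mesoderm were Ugt35B1 and Ugt37A2. Ugt35B1 averaged 0.13 ± 0.071 CPM in mesoderm, against 4.29 ± 0.439 CPM in neuronal nuclei, a difference of -5.02 ± 0.52 (adjusted p = 0.00113). Ugt37A2 averaged 0.413 ± 0.202 CPM in mesoderm, against 2.06 ± 1.35 CPM in neuronal nuclei, a difference of -2.28 ± 0.66 (adjusted p = 0.0291). Ugt35B1 is thus the member that was lower in mesoderm at both times, and Ugt37A2 went to -1.42 without neuronal replicate 2. The calls of Ugt36E1 and Ugt35B1 held without each library in turn, and those of the other 9 named members did not.

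Neighbouring members were not uniform. In the run of 9, per kb of exon, Ugt302C1 stood at 12.7 ± 2.66 CPM per kb in mesoderm at stages 14-17 and 5.10 ± 0.523 at stages 10-13, and at 10.5 ± 7.86 and 25.3 ± 5.09 in neuronal nuclei of those stages (n = 2 each). Ugt35A1 stood at 13.7 ± 0.0697 and 3.15 ± 0.343 CPM per kb in mesoderm at stages 14-17 and 10-13, and at 14.8 ± 5.38 and 9.50 ± 1.07 in neuronal nuclei. The 7 others of the run were at or under 5.64 CPM per kb in every group. Of 7 tested in the run, 3 rose with stage in mesoderm (Ugt35A1, Ugt304A1, Ugt303A1) and 1 fell (Ugt35B1), which lies next to Ugt35A1. By contrast, all 3 genes of the Ugt37C2 group and all 3 of the Ugt303B group rose with stage in mesoderm, as did both of the Ugt49B1 pair. Of all 32 members tested, 20 rose. Among these neighbours, Ugt37E1 averaged at most 0.841 CPM in a wild-type group and Ugt303B1 rested on few early counts. The call of Ugt49B1 was lost with limma-voom. In the Ugt36F1 group 1 of 3 was called with stage, Ugt36E1, although its neighbour Ugt36D1 was the more abundant gene in every library.

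**Figure D4:**
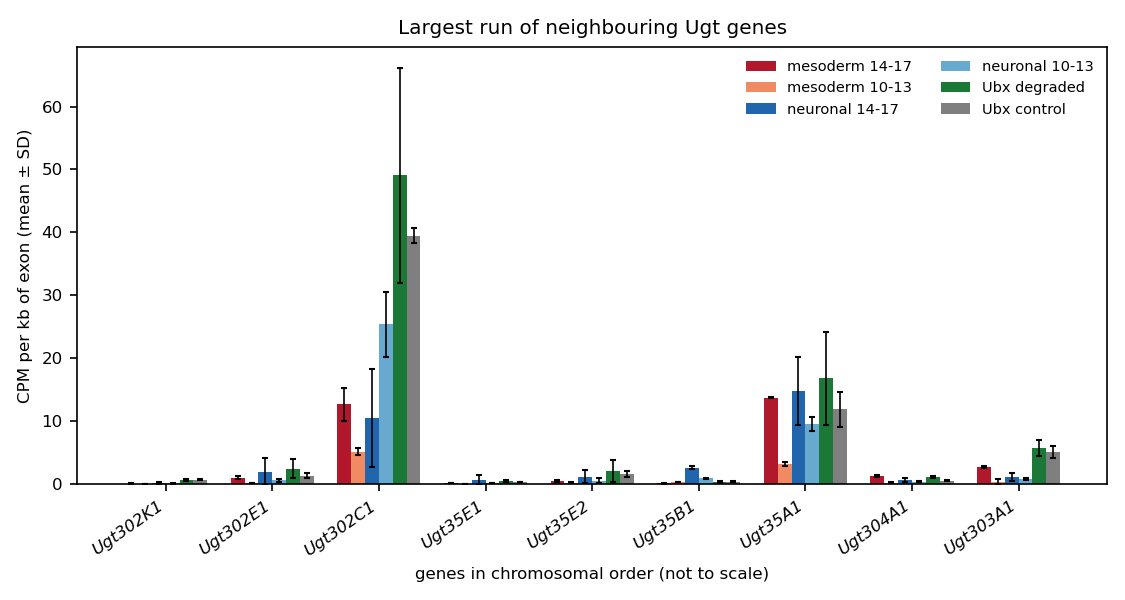
Mean CPM per kb of exon, with SD bars (n = 2 for wild-type groups, n = 3 for degraded and control), for the 9 genes of the largest run in chromosomal order. Ugt302C1 and Ugt35A1 rise above their neighbours in all 6 groups, and the 7 others stay low.

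The remaining 8 members did not meet the rule for naming, which was a mean of at least 5 CPM in a group or a call at 1 CPM or more. Some of them still exceeded low named members, such as Ugt304A1, in single libraries. Ugt302E1, Ugt302K1, Ugt35E1, Ugt35E2, Ugt36F1, Ugt37A1, Ugt37A3 and Ugt37E1 ranged from 0 to 7.08 CPM over all libraries. The highest values were 7.08 CPM for Ugt35E2 and 6.67 CPM for Ugt302E1, both in degraded replicate 1. Ugt302K1, Ugt35E1 and Ugt37A1 did not pass the filter in the wild-type set, and Ugt49B2 did not in the degradation set. Of the 32 members tested in the wild-type set, 28 (87.5%) were called in at least 1 of its 5 comparisons, against 80.5% of all 10549 genes tested there, so the share lay near the background, and the 4 called for degradation were among them.

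Degradation of Ubx in Mef2-expressing cells was set against controls that differ in the driver. Of 34 members that passed the filter, 4 were higher in degraded nuclei and 0 lower, against 3.57% of all 11641 genes called higher and 1.21% called lower. Called members made up 11.8%, against 4.78% of all genes, and the median difference was 0.37, against -0.01. DESeq2 called 6 members higher and 1 lower, against 718 higher and 494 lower of the 11641 genes. At an unadjusted p under 0.05 in edgeR, 11 members were higher and 2 lower. The share of all genes at that threshold was not computed, so this count does not set the members apart. Ugt317A1 had 81.4, 67.3 and 72.7 CPM in degraded nuclei, against 37.0, 41.1 and 44.6 CPM in controls, a difference of 0.85 ± 0.13 (adjusted p = 0.0176). Ugt35D1 had 27.1, 21.5 and 28.9 CPM in degraded nuclei, against 12.4, 12.7 and 14.3 CPM in controls, a difference of 0.98 ± 0.16 (adjusted p = 0.0189). Every degraded library lay above every control in both. Ugt37D1 had 109, 59.9 and 63.9 CPM in degraded nuclei, against 38.7, 32.8 and 42.8 CPM in controls, a difference of 1.03 ± 0.24 (adjusted p = 0.0472). Ugt301D1 had 30.3, 25.1 and 30.8 CPM in degraded nuclei, against 13.7, 12.4 and 18.2 CPM in controls, a difference of 0.97 ± 0.18 (adjusted p = 0.027). The same held for these, with degraded replicate 1 of Ugt37D1 far above the other 2.

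None of the 4 calls held without each library in turn, and that of Ugt37D1 was lost with limma-voom (adjusted p = 0.0561). The count was 0 without control replicate 2 (edgeR; adjusted p 0.0905 to 0.194 for the 4), 2 without control replicate 1, 8 without control replicate 3, and 1 without degraded replicate 2 or without degraded replicate 3, while all genes called ranged from 34 to 1645 against 557. Without degraded replicate 1 there were 4 calls, 2 higher and 2 lower, of which the 2 higher were among the 4 above and the 2 lower were Ugt49C1 at -0.90 (adjusted p = 0.0426) and Ugt37A2 at -1.81 (adjusted p = 0.0277). Degraded replicate 1 was the highest of its group in 27 of the 35 members and over 1.5-fold above both others in 14. Midgut markers summed to 427, 308 and 316 CPM in degraded libraries and 315, 342 and 299.8 CPM in controls, with no marker at 0, and 1 of 12 was called higher and 1 lower. Of these, Jon99Fi stood at 28.3, 3.30 and 1.33 CPM in degraded libraries and 34.6, 47.2 and 10.8 CPM in controls, and Try29F at 97.2, 44.7 and 47.2 CPM in degraded libraries and 50.7, 28.9 and 57.1 CPM in controls. Epidermis and cuticle markers summed to 2865, 2739 and 2590.5 CPM in degraded libraries and 1539, 1623 and 1855 CPM in controls, with 3 of 12 called higher and no marker at 0. Fat body markers summed to 4349, 3559 and 3641 CPM in degraded libraries and 2859, 3418 and 3511 CPM in controls. Their part in these differences was not tested.

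**Figure D5:**
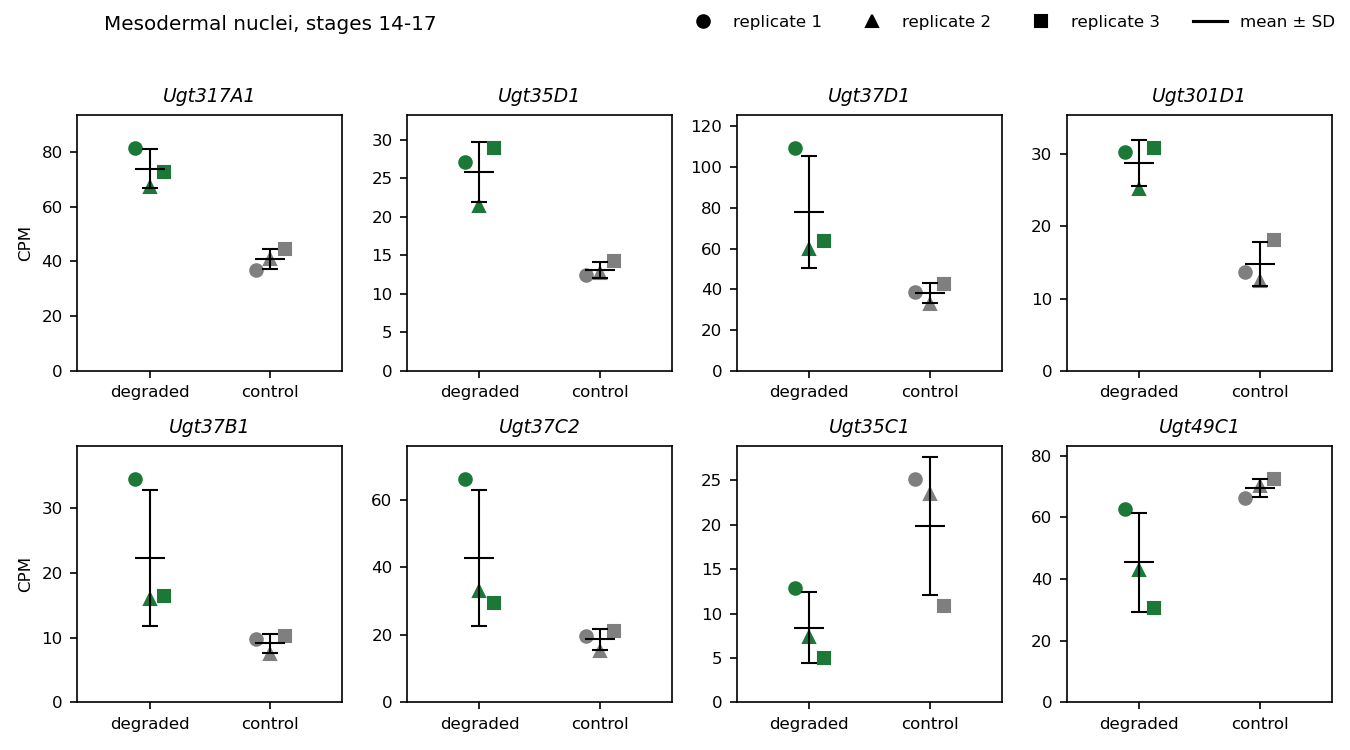
CPM of 8 members in the 3 degraded and 3 control libraries (1 symbol per replicate, bars for mean ± SD). The upper row holds Ugt317A1, Ugt35D1, Ugt37D1 and Ugt301D1, called higher; in the lower row replicate 1 is the highest degraded library in every panel, and Ugt49C1 lies below its controls in all 3 degraded libraries.

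Several members below the threshold had groups that did not overlap. With the 4 called ones, 12 of the 34 tested did not overlap. The share of all genes that did not was not computed, so this does not set the members apart. Ugt37B1 had 34.5, 16.0 and 16.4 CPM in degraded nuclei, against 9.74, 7.51 and 10.3 CPM in controls, a difference of 1.28 ± 0.31 (adjusted p = 0.0527). Ugt37C2 had 66.0, 33.0 and 29.4 CPM in degraded nuclei, against 19.6, 15.2 and 21.1 CPM in controls, a difference of 1.20 ± 0.30 (adjusted p = 0.0606). Ugt36A1 had 20.8, 11.8 and 11.3 CPM in degraded nuclei, against 8.85, 9.11 and 8.93 CPM in controls, a difference of 0.71 ± 0.24 (adjusted p = 0.124). All degraded libraries of these 3 lay above the controls, replicate 1 by most, and DESeq2 called Ugt37B1 (1.27, adjusted p = 0.000837) and Ugt37C2 (1.19, adjusted p = 0.00154). Ugt36E1 had 21.7, 16.1 and 17.3 CPM in degraded nuclei, against 13.1, 10.9 and 14.0 CPM in controls, a difference of 0.53 ± 0.17 (adjusted p = 0.11). Ugt303B1 had 6.11, 4.97 and 5.38 CPM in degraded nuclei, against 3.38, 3.07 and 4.17 CPM in controls, a difference of 0.63 ± 0.19 (adjusted p = 0.099). Ugt304A1 had 1.98, 2.06 and 1.5 CPM in degraded nuclei, against 0.853, 0.959 and 0.935 CPM in controls, a difference of 1.01 ± 0.25 (adjusted p = 0.0557). Here the degraded replicates were close to one another. Ugt50B3 had 8.05, 8.12 and 11.8 CPM in degraded nuclei, against 7.28, 7.16 and 6.93 CPM in controls, a difference of 0.39 ± 0.19 (adjusted p = 0.252). Ugt49C1 had 62.7, 43.0 and 30.8 CPM in degraded nuclei, against 66.3, 70.1 and 72.3 CPM in controls, a difference of -0.61 ± 0.23 (adjusted p = 0.149). Ugt50B3 was above its controls in all 3 degraded libraries and Ugt49C1 below in all 3. Ugt35C1 had 12.9, 7.41 and 5.01 CPM in degraded nuclei, against 25.1, 23.4 and 10.9 CPM in controls, a difference of -1.24 ± 0.39 (adjusted p = 0.107). Its control replicate 3 fell among the degraded libraries, and DESeq2 called it lower at -1.23 (adjusted p = 0.0085).

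The other named members overlapped between groups. Ugt36D1 had 254, 175 and 178 CPM in degraded nuclei, against 157, 156 and 181 CPM in controls, a difference of 0.30 ± 0.17 (adjusted p = 0.306). Ugt302C1 had 136, 85.9 and 71.3 CPM in degraded nuclei, against 76.1, 79.4 and 80.5 CPM in controls, a difference of 0.31 ± 0.22 (adjusted p = 0.421). Ugt305A1 had 62.8, 66.9 and 72.1 CPM in degraded nuclei, against 44.1, 54.1 and 79.0 CPM in controls, a difference of 0.19 ± 0.20 (adjusted p = 0.621). These abundant genes had control values inside the range of the degraded ones or the reverse. Ugt49B1 had 58.0, 29.4 and 21.9 CPM in degraded nuclei, against 39.2, 40.2 and 31.5 CPM in controls, a difference of -0.02 ± 0.32 (adjusted p = 0.978). Ugt35A1 had 45.1, 22.7 and 21.9 CPM in degraded nuclei, against 26.6, 19.9 and 16.8 CPM in controls, a difference of 0.50 ± 0.30 (adjusted p = 0.337). Ugt303B3 had 29.4, 22.8 and 31.1 CPM in degraded nuclei, against 21.4, 21.0 and 25.2 CPM in controls, a difference of 0.30 ± 0.16 (adjusted p = 0.285). Degraded replicate 1 was the highest of the 6 libraries for Ugt49B1 and Ugt35A1. Ugt316A1 had 23.6, 21.2 and 22.8 CPM in degraded nuclei, against 27.2, 25.7 and 17.5 CPM in controls, a difference of -0.06 ± 0.18 (adjusted p = 0.874). Ugt37C1 had 27.7, 23.0 and 11.6 CPM in degraded nuclei, against 15.5, 18.7 and 19.6 CPM in controls, a difference of 0.21 ± 0.29 (adjusted p = 0.702). Ugt303A1 had 12.9, 8.51 and 13.0 CPM in degraded nuclei, against 11.8, 7.93 and 11.1 CPM in controls, a difference of 0.16 ± 0.22 (adjusted p = 0.718). None of these differed by more than its spread. Ugt307A1 had 2.47, 2.09 and 1.94 CPM in degraded nuclei, against 2.42, 1.21 and 1.83 CPM in controls, a difference of 0.25 ± 0.28 (adjusted p = 0.634). Ugt303B2 had 2.95, 1.49 and 2.91 CPM in degraded nuclei, against 1.28, 1.09 and 1.62 CPM in controls, a difference of 0.89 ± 0.32 (adjusted p = 0.137). Ugt37A2 had 3.40, 0.958 and 0.768 CPM in degraded nuclei, against 3.55, 2.88 and 2.76 CPM in controls, a difference of -0.85 ± 0.50 (adjusted p = 0.329). These were low genes with few counts. Ugt35B1 had 0.849, 0.39 and 0.485 CPM in degraded libraries and 0.497, 0.863 and 0.425 CPM in controls, and Ugt49B2, which was not tested, had 0.323, 0.142 and 0.323 CPM and 0.355, 1.34 and 0.213 CPM. Both stayed at or under 1.34 CPM in every library of the set.

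Genes that supply or act beside UGTs were counted in the same fits, against the shares and medians of all genes given above. Those shares are of edgeR calls, and counts at an unadjusted p under 0.05 or by DESeq2 have none beside them. The value beside a gene or list is a log2 change. UDP-glucose supply and use covers enzymes on the way to UDP-glucose (UGP, Pgm2a), Galk (galactokinase), and mmy, which makes the substrate of chitin synthase kkv. It also covers those that spend UDP-sugars, such as kkv, sgl (UDP-glucose dehydrogenase), Tps1 of trehalose synthesis and Uggt of glycoprotein folding. Of these, kkv is also among the epidermis markers. Of 11 genes of this list tested, 3 were higher and 4 lower in mesoderm than in neuronal nuclei at stages 10-13, with Tps1 at 1.83, sgl at 0.65, mmy at -2.25 and kkv at -2.27 (median -0.16). At stages 14-17, 2 were higher and 1 lower, with UGP at 0.69, kkv at 0.70 and Pgm2a at -0.77 (median 0.13). With stage, 5 rose and 2 fell in mesoderm, with kkv at 2.17, Galk at 1.68, Uggt at -0.67 and Pgm2a at -0.51 (median 0.48). In neuronal nuclei, 2 rose and 2 fell, with Galk at 1.08, sgl at 0.88, mmy at -0.98 and kkv at -0.80 (median 0.15). The stage changes differed for 5, 3 of them more positive in mesoderm and 2 less, with kkv at 2.97, mmy at 2.16, Pgm2a at -0.92 and Uggt at -0.82. Under degradation, 1 of 12 were higher and 0 lower (edgeR; 3 and 3 at an unadjusted p under 0.05; 2 called by DESeq2), Uggt at 0.54.

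Glutathione S-transferases (GST) join glutathione to reactive compounds. Of 35 GST genes tested, 0 were higher and 26 lower in mesoderm than in neuronal nuclei at stages 10-13 (edgeR; 0 and 27 at an unadjusted p under 0.05; 25 called by DESeq2), with GstZ2 at -4.70 and GstO3 at -3.80 (median -1.98). At stages 14-17, 2 were higher and 16 lower, with GstS1 at 1.28, GstZ1 at 1.36, GstD5 at -3.32 and GstE13 at -1.58 (median -0.93). With stage, 19 rose and 0 fell in mesoderm (edgeR; 20 and 0 at an unadjusted p under 0.05; 21 called by DESeq2), with GstS1 at 2.79 and GstO3 at 3.62 (median 1.74). In neuronal nuclei, 11 rose and 3 fell, with GstE12 at 2.10, GstE6 at 1.95, GstZ2 at -1.27 and GstT2 at -1.34 (median 0.68). The stage changes differed for 10, 10 of them more positive in mesoderm and 0 less (edgeR; 14 and 2 at an unadjusted p under 0.05; 12 called by DESeq2), with GstZ2 at 3.49 and GstT2 at 3.33. Under degradation, 0 of 35 were higher and 0 lower (edgeR; 3 and 8 at an unadjusted p under 0.05; 4 called by DESeq2).

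Cytochrome P450 enzymes oxidise compounds that UGTs may then conjugate. Of 62 P450 genes tested, 5 were higher and 30 lower in mesoderm than in neuronal nuclei at stages 10-13, with Cyp6a16 at 2.72, Cyp4d21 at 2.91, Cyp4g15 at -6.44 and Cyp6a20 at -3.76 (median -1.29). At stages 14-17, 10 were higher and 7 lower, with Cyp4ad1 at 1.38, Cyp4d21 at 3.06, Cyp6a20 at -2.08 and Cyp12a4 at -2.98 (median 0.27). With stage, 28 rose and 5 fell in mesoderm, with Cyp4e1 at 3.54, Cyp301a1 at 2.79, Cyp4d21 at -2.75 and Cyp4d14 at -1.39 (median 1.07). In neuronal nuclei, 10 rose and 10 fell, with Cyp6a16 at 3.07, Cyp6a22 at 1.62, Cyp4g15 at -3.09 and Cyp4c3 at -4.73 (median 0.01). The stage changes differed for 23, 21 of them more positive in mesoderm and 2 less, with Cyp4g15 at 5.81, Cyp12e1 at 5.09, Cyp6a16 at -3.16 and Cyp6a8 at -4.37. Under degradation, 4 of 76 were higher and 0 lower (edgeR; 15 and 11 at an unadjusted p under 0.05; 13 called by DESeq2), with Cyp304a1 at 1.78 and Cyp9f3 at 1.06. Other genes cover all of the spans of Cyp9f3 and Cyp304a1 and 97.5% of Cyp4d14, so their values are uncertain.

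The efflux pumps of the ABC family export conjugates and drugs. Of 4 pump genes tested, 0 were higher and 2 lower in mesoderm than in neuronal nuclei at stages 10-13 (edgeR; 0 and 3 at an unadjusted p under 0.05; 3 called by DESeq2), with Mdr65 at -6.82 and MRP at -1.6 (median -1.59). At stages 14-17, 0 were higher and 1 lower (edgeR; 0 and 1 at an unadjusted p under 0.05; 1 called by DESeq2), Mdr49 at -2.02 (median -0.20). With stage, 1 rose and 0 fell in mesoderm (edgeR; 1 and 0 at an unadjusted p under 0.05; 1 called by DESeq2), Mdr65 at 4.03 (median 0.34). In neuronal nuclei, 0 rose and 2 fell (edgeR; 0 and 2 at an unadjusted p under 0.05; 2 called by DESeq2), with MRP at -1.87 and Mdr65 at -2.53 (median -0.66). The stage changes differed for 2, 2 of them more positive in mesoderm and 0 less (edgeR; 2 and 0 at an unadjusted p under 0.05; 2 called by DESeq2), with Mdr65 at 6.55 and MRP at 2.22. Under degradation, 0 of 4 were higher and 0 lower (edgeR; 0 and 1 at an unadjusted p under 0.05; 0 called by DESeq2).

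The list drawn up for regulators of the xenobiotic response held cnc, the fly Nrf2, with its partner maf-S and its inhibitor Keap1. It also held the bHLH-PAS proteins Met, gce and tgo, whose part in that response was not tested. Of 8 genes of this list tested, 3 were higher and 2 lower in mesoderm than in neuronal nuclei at stages 10-13. Among them were Met at 0.78, Keap1 at 0.83, gce at -2.60 and maf-S at -0.72 (list median 0.32). At stages 14-17, 3 were higher and 1 lower, with Met at 1.5, gce at 2.32 and maf-S at -1.42 (median 0.56). With stage, 2 rose and 1 fell in mesoderm, with gce at 3.47, cnc at 0.77 and Keap1 at -0.98 (median -0.09). In neuronal nuclei, 1 rose and 3 fell, with tgo at 0.97, cnc at -0.85 and gce at -1.46 (median -0.48). The stage changes differed for 3, 2 of them more positive in mesoderm and 1 less, with gce at 4.92, cnc at 1.62 and tgo at -1.21. Under degradation, 0 of 8 were higher and 0 lower (edgeR; 0 and 2 at an unadjusted p under 0.05; 0 called by DESeq2).

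Nucleotide-sugar transporters bring donor sugars into the endoplasmic reticulum and Golgi. Of 3 transporter genes tested, 0 were higher and 1 lower in mesoderm than in neuronal nuclei at stages 10-13 (edgeR; 1 and 1 at an unadjusted p under 0.05; 2 called by DESeq2), Efr at -0.93 (median -0.18). At stages 14-17, 0 were higher and 0 lower (edgeR; 0 and 0 at an unadjusted p under 0.05; 0 called by DESeq2) (median -0.04). With stage, 1 rose and 0 fell in mesoderm (edgeR; 1 and 0 at an unadjusted p under 0.05; 1 called by DESeq2), Efr at 1.16 (median 0.38). In neuronal nuclei, 0 rose and 0 fell (edgeR; 2 and 0 at an unadjusted p under 0.05; 1 called by DESeq2) (median 0.61). The stage changes differed for 0, 0 of them more positive in mesoderm and 0 less (edgeR; 0 and 0 at an unadjusted p under 0.05; 0 called by DESeq2). Under degradation, 0 of 2 were higher and 0 lower (edgeR; 0 and 0 at an unadjusted p under 0.05; 0 called by DESeq2).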

How the data were processed

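The authors deposited unnormalised counts for 14 libraries. HTSeq, FastQC and both BDGP6 and dm6 appear in the submitters' processing notes. Aligner, annotation, counted feature and strand setting were not given in the sources used here. In the degradation set 42.8 to 48.6% of reads fitted more than 1 place, and these, like reads in no gene (7.36 to 8.87%), were left out of library sizes. Counts were tested with edgeR 4.0.16 (filterByExpr with minimum count 10 and minimum total 15, TMM, quasi-likelihood test, Benjamini-Hochberg adjustment over all genes at 5%) in R 4.3.3, fitting each set apart (4 residual degrees of freedom), since the wild-type tables list 14156 genes and those of the degradation set 15682. Alternatives were DESeq2 1.42.0 on the counts, voom of limma 3.58.1, DESeq2 size factors, library totals, no filter, a replicate block, each library left out, and only the 2 groups compared. On simulated counts for mesoderm against neuronal nuclei at stages 10-13 (10549 genes, 200 changed), the test recovered 21% of changes of log2 1 and 90% of log2 2, with 4 false calls. For degraded against control (11641 genes, 200 changed) it recovered 86% and 100%, with 10. The changed genes were drawn from the better-counted ones only, and all genes were given the same dispersion. These shares thus do not cover members with low counts or a wide spread between replicates. Named members have a mean of at least 5 CPM in a group, or are called and average 1 CPM or more in whichever group is higher; at most 2 genes per direction of other lists are named, by adjusted p. The members and lists were chosen with earlier results of these data known. The P450 list was every symbol of Cyp and a number, less Cyp1 and Cyp40, which are cyclophilins and were left out after the data were seen. List symbols GlyS, Csat, Gfr, Mex1 and FASN3 matched no gene. Replicate libraries differed by more than counting noise, and intervals from counts cover counting error only. Sequences are not analysed here.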

Additional observations from a re-analysis of the deposited data

Results flagged for a closer look

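The change with stage differed between mesoderm and neuronal nuclei, by edgeR's test of the difference itself (mesoderm minus neuronal, log2 ± SE), in 13 members. They made up 40.6% of the 32 members tested, against 35.4% of all genes. Most of these calls were lost without at least 1 library, as given above. The 11 with the more positive change in mesoderm were Ugt307A1 at 5.08 ± 0.91, Ugt49C1 at 4.22 ± 0.52, Ugt303B2 at 4.14 ± 1.16, Ugt37C1 at 3.32 ± 0.42 and Ugt36E1 at 3.06 ± 0.34, followed by Ugt302C1 at 2.59 ± 0.71, Ugt305A1 at 2.48 ± 0.70, Ugt303B3 at 2.12 ± 0.48, Ugt50B3 at 1.94 ± 0.36, Ugt35A1 at 1.48 ± 0.40 and Ugt36A1 at 1.14 ± 0.31. The 2 with the less positive change were Ugt49B2 at -4.39 ± 1.12 and Ugt35B1 at -3.37 ± 0.69. For Ugt302C1 the call came from the difference alone, with no call for stage in either tissue in the same fit (mesoderm 1.31 ± 0.51, neuronal -1.28 ± 0.49). The same was so for Ugt49B2 (mesoderm -1.74 ± 0.79, neuronal 2.65 ± 0.79). With only the 2 mesoderm groups in the edgeR fit, both were called with stage in mesoderm (adjusted p = 0.00278 and 0.00197).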

How the results depend on the processing

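Leaving out each library in turn moved the count of called members over 9 to 19 for mesoderm against neuronal nuclei at stages 10-13 (15 with all libraries), 2 to 21 at stages 14-17 (12), 13 to 27 for stage in mesoderm (22), 2 to 19 for stage in neuronal nuclei (9), 5 to 20 for the difference of stage changes (13) and 0 to 8 for degraded against control (4). Without each library, 7 of 14, 2 of 11, 12 of 21, 2 of 9, 5 of 13 and 0 of 4 named calls were kept in these comparisons. Of 161 log2 values of named members, 23 changed sign under at least 1 setting, none of them called with all libraries; among them were the neuronal stage changes of Ugt35D1 (1.52, and -0.59 without neuronal replicate 1 of stages 14-17), Ugt303A1 (0.31, and -0.45 without replicate 2) and Ugt50B3 (0.16, and -0.09 without replicate 2). The 1 that was called with the other sign was that of Ugt49B1, at -1.03 without neuronal replicate 2 of stages 14-17, 0.98 without replicate 1 and 0.26 with both, and the causes were not tested. Of the other settings, library totals gave 7 calls at stages 14-17 between tissues, the fit of only 2 groups gave 4 for stage in neuronal nuclei, and DESeq2 gave 7 for degradation, with the causes not tested. Library totals also ended the calls of Ugt303B3 with stage in neuronal nuclei (adjusted p = 0.0834) and of Ugt305A1 for the difference of stage changes (adjusted p = 0.05). Library totals set the mean family sum to 814 CPM in mesoderm at stages 14-17 (951 otherwise), 454 at stages 10-13 (471) and 458 in neuronal nuclei at stages 10-13 (399), so mesoderm was no longer above neuronal nuclei at stages 10-13. Over all genes, 557 were called for degradation, 1212 by DESeq2 and 34 to 1645 without 1 library; 2154 for stage in neuronal nuclei became 765 in the fit of 2 groups and 386 to 4231 without 1 library; 4340 between tissues at stages 14-17 became 2810 and, without a mesoderm library of those stages, 1328 and 1883. Stage in mesoderm fell to 2862 without 1 library, against 5027, and the difference of stage changes to 2000, against 3730. Libraries share replicate numbers but the labels do not pair them, and the deviations of same-numbered degraded and control libraries correlated at 0.217, 0.0887 and 0.272, with control replicate 2 closer to degraded replicate 1 (0.102). A replicate block gave 7 called members and 1238 genes for degradation and moved no other count of members by over 1.5 times; with it Ugt37D1 between tissues at stages 14-17 (adjusted p = 0.0549) and Ugt35B1 with stage in mesoderm (adjusted p = 0.0593) were not called. Low counts limit Ugt37A3, Ugt303B1 and Ugt303B2 in early mesoderm, where 0 counts allow up to 0.187 CPM. Neuronal replicates of stages 14-17 limit the comparisons that use them. They also bear on the other wild-type comparisons, since the fit shares the spread of a gene over all 4 groups. With only the 2 groups compared, 25 members were called for stage in mesoderm, against 22 (6443 of all genes, against 5027). For tissue at stages 10-13 there were 19, against 15 (6530 of all genes, against 5566).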

Other observations

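Wild-type mesoderm of stages 14-17 and the controls of the degradation set carry the same tissue and stage labels and the same twi-INTACT tag, but their tables list different genes and their genotypes differ. Set side by side with no test, Ugt35C1 averaged 19.8 ± 7.77 CPM in controls (SD, n = 3) and 1.33 ± 0.415 CPM in wild-type mesoderm (SD, n = 2), a ratio of 14.9. Ugt49C1 averaged 69.6 ± 3.07 CPM in controls and 14.8 ± 1.86 CPM in wild-type mesoderm, a ratio of 4.70. Ugt35D1 averaged 13.1 ± 1.04 CPM in controls and 124 ± 17.1 CPM in wild-type mesoderm, a ratio of 0.106, Ugt50B3 stood at a ratio of 0.129 and Ugt301D1 at 0.211. These are the 5 of 22 members with a mean of at least 5 CPM in either group whose ratio passed 4-fold, or 22.7%, against 21.3% of 8822 genes at that level. The members' share is thus near that of all genes, and batch, genotype and counting cannot be told apart here.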
